A study of Mus musculus with 38 samples.

Results

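A set of 9 interferon-stimulated genes was followed through the hippocampal transcriptome of APPPS1ΔE9 and wild-type (WT) mice fed chow with or without the small molecule anle138b. Ifit1, Ifit3, Oasl2, Isg15, Irf7, Usp18, Ifi27l2a, Bst2 and Rtp4 were taken by symbol from the 48709 genes in the count files, and all 9 matched a single Ensembl identifier. RNA sequencing covered 38 mice in 8 groups. The cohorts are named for the stage at which 4 months of feeding began, before or after the onset of plaques. The study counted amyloid plaques in APPPS1ΔE9 mice of both. The pre-plaque group, taken at 6 months of age, held 4 mice of each genotype on each chow. The post-plaque group, taken at 10 months of age, held 5 WT mice on placebo, 5 WT on anle138b, 5 APPPS1ΔE9 on placebo and 7 APPPS1ΔE9 on anle138b. APPPS1ΔE9 mice carry transgenes driven by the prion protein promoter, a mutant amyloid precursor protein among them, so that plaques form on top of overexpression. All mice, controls included, were C57BL/6.

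Type I interferons bind a receptor of the subunits Ifnar1 and Ifnar2, whose kinases phosphorylate transcription factors of the STAT family. Stat2 and Irf9 take part in the factor ISGF3, which binds the interferon-stimulated response element (ISRE) before the start of its target genes. The targets limit viruses, edit the response or switch it off. In the brain many cell types can respond, microglia, the resident macrophages, among them.

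The ISRE was visible in the promoters of members whose levels are described further on. RefSeq windows of 300 bases (250 before to 50 after the start, build GRCm38.p6) were at hand for 6 of the 9 genes, and Usp18, Ifi27l2a and Rtp4 had none in the table used. Windows of 4 of these 6 genes held the ISRE core, that is GAAA, any 2 bases and GAAA again, on one of the strands. The same letters occurred in 3.44% of all 32851 windows. The stretches below run 5′ to 3′ on the strand of the gene, reach 20 bases to either side of the matches, and show each ISRE core in capitals.
Ifit1, chr19:34640765-34640833, plus strand: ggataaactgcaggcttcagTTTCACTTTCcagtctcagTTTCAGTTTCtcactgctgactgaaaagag
Ifit3, chr19:34583353-34583436, plus strand: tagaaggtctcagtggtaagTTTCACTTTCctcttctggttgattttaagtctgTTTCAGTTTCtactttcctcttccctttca
Isg15, chr4:156200855-156200916, minus strand: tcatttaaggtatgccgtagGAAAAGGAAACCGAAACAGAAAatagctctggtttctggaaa
Bst2, chr8:71537567-71537622, minus strand: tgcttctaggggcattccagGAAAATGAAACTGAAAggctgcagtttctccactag

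Ifit1 and Ifit3, neighbours on chromosome 19, each held 2 separate cores, of the same letters in both genes. Those of Ifit1 began at -104 and -85 from the start, and those of Ifit3 at -156 and -122. Isg15 held 3 overlapping cores between -78 and -57, and Bst2 2 overlapping cores between -130 and -115. With a C required after the core, as in many ISREs, these 4 windows still matched, as did 0.819% of all windows. The motif of interferon gamma signalling, GAS (TTCNNNGAA), was present once, in Bst2 at -136, where it overlaps the first ISRE core, and in 8.3% of all windows. Neither motif was in the windows of Oasl2 and Irf7. These matches describe letters and were not tested as binding sites.

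All 9 genes were expressed at a low level. Divided by exonic length, Bst2 (tetherin, which holds budding virus at the cell surface) had the highest mean over the 38 mice at 5.54 CPM (counts scaled to library size) per kilobase. Ifit3 (an antiviral factor) followed at 3.08, Ifi27l2a (a small membrane protein) at 2.53 and Isg15 (a ubiquitin-like modifier) at 2.44 CPM per kilobase. Ifit1, a cap-sensing member of the same family as Ifit3, reached 1.09, and Rtp4, a chaperone of receptor traffic, 1.06. Oasl2, of the oligoadenylate synthetase family, was at 0.854, Irf7, the transcription factor that amplifies the response, at 0.654, and Usp18, which removes Isg15 from proteins and dampens the receptor, at 0.486 CPM per kilobase. Counts per mouse ran from 7 for Ifi27l2a to 271 for Oasl2, so that counting error is not small for the weakest members. All 9 genes passed the filter on low counts in every comparison. Each is protein-coding. In GRCm38 the plus-strand members are Ifit1 at chr19:34640871-34650009, Ifit3 at chr19:34583531-34588731, Oasl2 at chr5:114896936-114912234, Usp18 at chr6:121245906-121270917 and Rtp4 at chr16:23520291-23614222. The minus-strand members are Isg15 at chr4:156199424-156200818, Irf7 at chr7:141262706-141266481, Ifi27l2a at chr12:103442167-103443680 and Bst2 at chr8:71534255-71537456. Irf7 shares 45 exonic bases with Phrf1, Usp18 shares 124 with Gm44148 and Rtp4 shares 296 with Gm45338, and how these reads were assigned depends on a strand setting not given in the sources used here. Ifit3 and Ifit3b are near-identical copies, so that the split of reads between them is uncertain.

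Total counts were 15847985 to 31895808 per mouse. The transgenes followed the sample titles: App was at 1506 to 1809 CPM in the 18 WT and 3228 to 4318 CPM in the 20 APPPS1ΔE9 libraries, although a second label names the transgenic genotype for the 4 pre-plaque WT mice on placebo. While the study describes male mice, 12 libraries had high Xist and little Y-linked RNA, 11 of them WT. In the pre-plaque group these were 3 of 4 placebo-treated and 2 of 4 anle138b-treated WT mice. In the post-plaque group they were 3 of 5 WT mice on each chow and 1 of 7 anle138b-treated APPPS1ΔE9 mice. Genotype and this sex-linked signal thus largely went together. Markers of choroid plexus, a tissue beside the hippocampus, summed to between 78.9 and 7988 CPM in pre-plaque mice. They reached at most 324 CPM in post-plaque mice, apart from 1 anle138b-treated APPPS1ΔE9 mouse at 4368 CPM. In the pre-plaque group the median was 468 CPM in placebo-treated and 6449 CPM in anle138b-treated APPPS1ΔE9 mice. It was 5127 CPM in placebo-treated and 6825 CPM in anle138b-treated WT mice. Choroid plexus content there went partly with genotype on placebo and with chow in APPPS1ΔE9 mice. Genotypes were run on different lanes with little overlap, so genotype and lane cannot be told apart. The same holds for chow and lane in pre-plaque APPPS1ΔE9 mice, where the 4 placebo libraries were all on lane 5 and the 4 anle138b libraries all on lane 6. Hippocampal neuron markers summed to between 3253 and 4273 CPM, with no marker at 0 counts in any group. In tissue RNA, fewer cells of a type and less RNA per cell cannot be told apart either.

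In the pre-plaque group, placebo-treated APPPS1ΔE9 mice had higher values of the antiviral effectors Ifit1 and Oasl2 than their WT controls, yet no member passed the test. Ifit1 was at 4.68, 2.97, 3.06 and 4.84 CPM in placebo-treated APPPS1ΔE9 and at 2.0, 2.19, 2.46 and 2.14 CPM in placebo-treated WT mice. The WT values lay close together. This was a log2 fold change of 0.82 ± 0.19 (SE, edgeR's quasi-likelihood test, Benjamini-Hochberg adjusted p = 0.28). Oasl2 was at 5.91, 4.99, 4.82 and 5.84 against 4.64, 3.47, 2.96 and 4.46 CPM (log2 fold change 0.48 ± 0.16, adjusted p = 0.36). Rtp4 was at 2.46, 2.26, 2.38 and 2.63 against 1.56, 1.57, 1.82 and 2.18 CPM (0.45 ± 0.17, adjusted p = 0.40). Isg15 (0.05 ± 0.21) and Bst2 (-0.03 ± 0.27) overlapped widely.

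With edgeR 0 of 9 members passed an adjusted p under 0.1 here, beside 0.0715% of the 16774 genes tested. DESeq2 called 1, Ifit1 (adjusted p = 0.080), beside 0.468% of the 19020 genes it tested. The edgeR count over all genes, 12, was 205 without the first placebo-treated APPPS1ΔE9 mouse, the one with 6701 CPM of choroid plexus markers. At an unadjusted p under 0.05, 3 members were higher and 0 lower, against 5.22% and 5.86% of all genes. The members varied together from mouse to mouse, as described further on. Here and below, counts of members by sign or p are therefore not separate readings of a difference. Of the 9 members 8 had positive values, as did 50.8% of all genes, and the members' median log2 fold change was 0.45, or 0.29 to 0.55 with 1 mouse left out. In the same cohort on anle138b the median was 0.26 (0.15 to 0.32 with 1 mouse left out) with 9 of 9 members at positive values (48.2% of all genes), and 0 members passed with edgeR or DESeq2 or had an unadjusted p under 0.05 (0.047% of 17033 genes passed). Ifit1 was at 2.88, 3.58, 2.75 and 3.31 CPM in anle138b-treated APPPS1ΔE9 and at 2.93, 2.73, 1.72 and 2.98 CPM in anle138b-treated WT mice, so that these groups overlapped (0.27 ± 0.18). Its genotype difference was lower by 0.55 ± 0.27 on the log2 scale on anle138b than on placebo, which did not pass as an interaction (adjusted p = 0.63).

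Over both chows of the pre-plaque group, 0 members passed with edgeR, beside 0.172% of 17404 genes. With DESeq2 2 passed, Ifit1 and Oasl2, beside 1.58% of 14596 genes. The log2 fold changes were 0.55 ± 0.15 for Ifit1 (adjusted p = 0.26), 0.36 ± 0.11 for Oasl2, 0.35 ± 0.13 for Rtp4, 0.38 ± 0.16 for Irf7 and 0.42 ± 0.20 for Usp18, and these 5 had an unadjusted p under 0.05, against 5.29% of all genes in that direction. All 9 were positive, as were 47.9% of all genes. Bst2 had 0.10 ± 0.22.

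**Figure D1:**
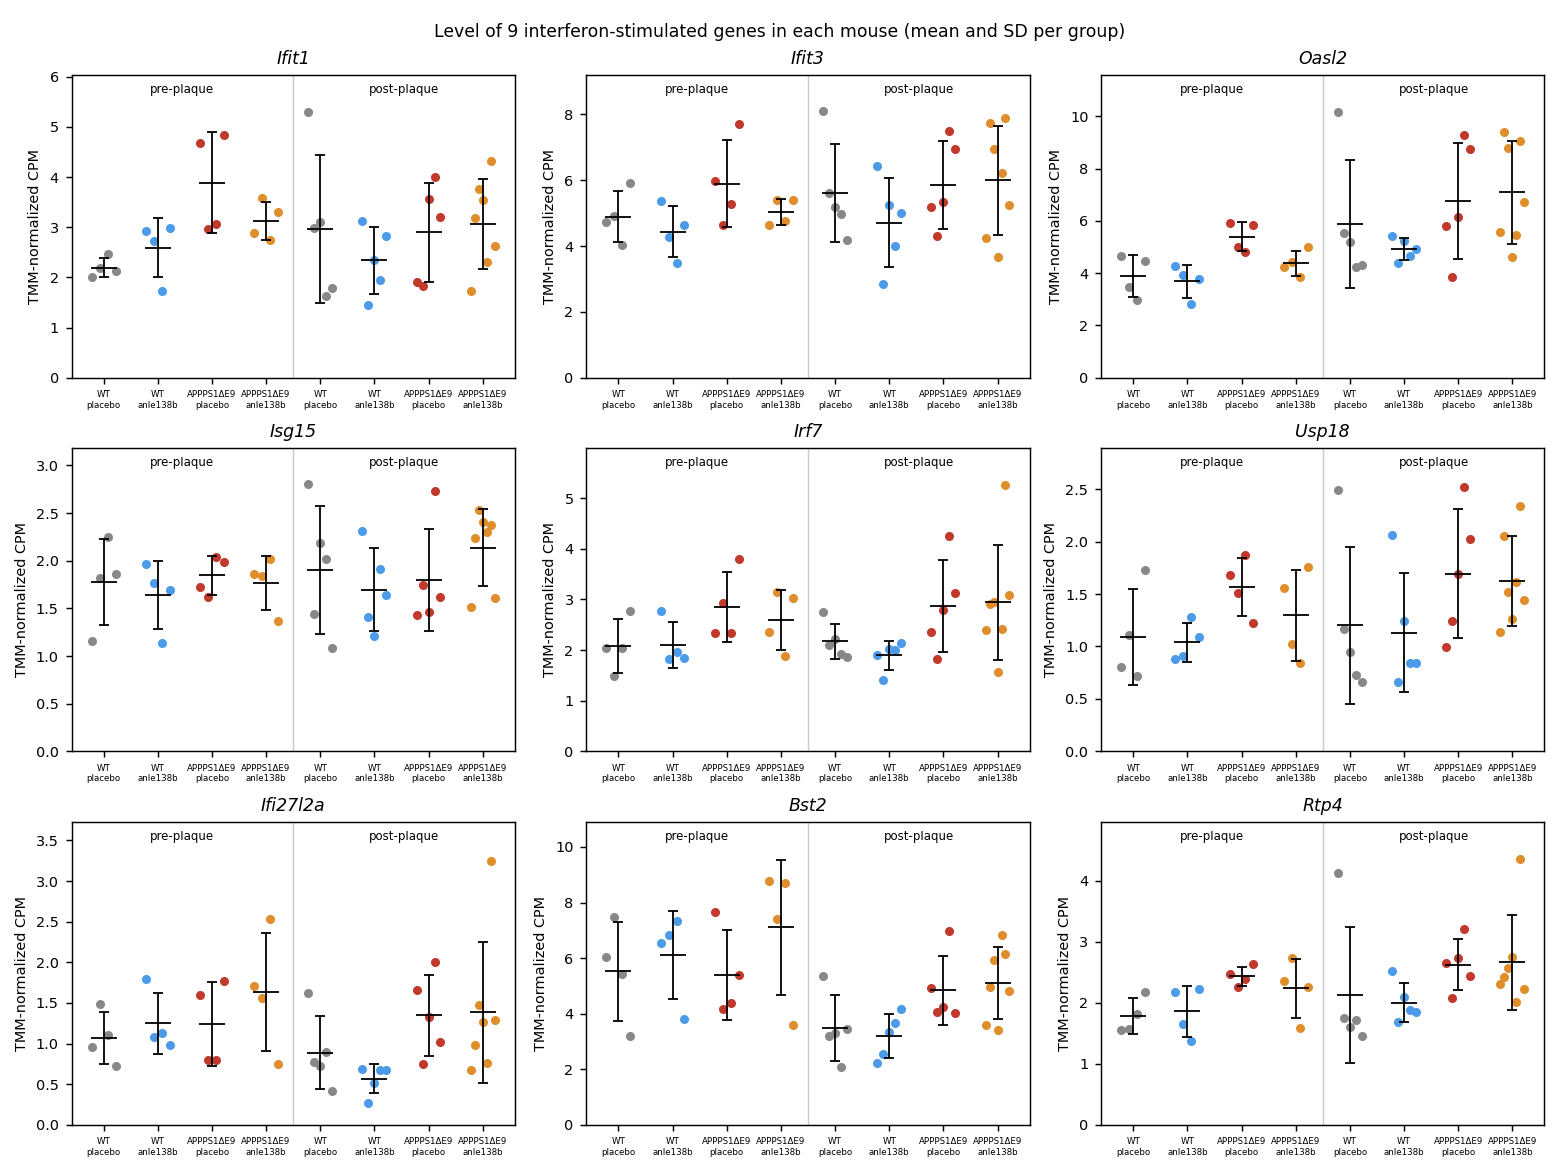
TMM-normalized CPM (vertical axes, linear, starting at 0) of each of the 9 genes in each of the 38 mice (points), by genotype and chow, with the pre-plaque group on the left and the post-plaque group on the right of each panel; bars are the mean and SD of a group. Ifit1 of placebo-treated pre-plaque mice is higher in APPPS1ΔE9 than in WT mice, without passing the edgeR test. A single placebo-treated WT mouse of the post-plaque group tops its group in every panel.

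In the post-plaque group Bst2 was higher in APPPS1ΔE9 than in WT mice, and Ifi27l2a and Irf7 had the next smallest p values. In placebo-treated APPPS1ΔE9 mice Bst2 was at 4.92, 4.06, 4.24, 6.98 and 4.02 CPM, in placebo-treated WT mice at 5.36, 3.19, 3.32, 2.10 and 3.45 CPM. Except for the first WT mouse, all WT values lay below all transgenic values. On anle138b, Bst2 ranged from 3.41 to 6.82 CPM with a median of 4.97 in APPPS1ΔE9 mice and was at 2.23, 2.54, 3.33, 3.67 and 4.17 CPM in WT mice, with some overlap. Over both chows the log2 fold change was 0.59 ± 0.16 (SE, edgeR, adjusted p = 0.089). Bst2 was the only member of the 9 that passed, beside 1.56% of the 17668 genes tested. The call is a narrow one: it held in 7 of 22 fits that left out 1 mouse, with log2 fold changes of 0.52 to 0.68.

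Ifi27l2a had the largest difference of the members. It was at 1.65, 0.746, 1.32, 2.0 and 1.01 CPM in placebo-treated APPPS1ΔE9 and at 1.62, 0.778, 0.730, 0.900 and 0.415 CPM in placebo-treated WT mice. On anle138b it ranged from 0.672 to 3.24 CPM with a median of 1.27 in APPPS1ΔE9 mice, against 0.689, 0.274, 0.513, 0.679 and 0.673 CPM in WT mice. Only the lowest of the 7 transgenic values fell within the WT range there. The log2 fold change over both chows was 0.98 ± 0.28 (adjusted p = 0.13). It was 1.30 ± 0.40 among anle138b-treated mice alone (adjusted p = 0.45) and 0.64 ± 0.35 among placebo-treated mice, and the interaction of genotype and chow was 0.66 ± 0.56 (adjusted p = 0.99).

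Irf7 was at 2.35, 1.82, 2.78, 4.25 and 3.12 CPM in placebo-treated APPPS1ΔE9 mice, and at 2.74, 2.10, 2.23, 1.93 and 1.87 CPM in placebo-treated WT mice. On anle138b it had a range of 1.57 to 5.25 and a median of 2.91 CPM in APPPS1ΔE9 mice, and values of 1.91, 1.41, 2.02, 2.0 and 2.15 CPM in WT mice. The groups overlapped, with the highest values all transgenic (0.53 ± 0.17 over both chows, adjusted p = 0.23). Of the other effectors, Ifit1 had a log2 fold change of 0.20 ± 0.21 and Oasl2 of 0.38 ± 0.17. An unadjusted p under 0.05 with higher levels was found for 6 of 9 members, against 4.35% of all genes, namely Oasl2, Irf7, Usp18, Ifi27l2a, Bst2 and Rtp4, and 0 were lower. All 9 had positive values (47.9% of all genes), with a median of 0.38, in genes that varied together between mice.

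Split by chow, 0 members passed with edgeR or DESeq2 in placebo-treated post-plaque mice (0.324% of 16971 genes passed, 0 members with an unadjusted p under 0.05), and 7 of 9 members had positive values against 49% of all genes, with a median of 0.33. Among anle138b-treated mice 0 members passed with either tool while 0.723% of 17151 genes did. There 5 members had an unadjusted p under 0.05 in the higher direction (3.61% of all genes) and 9 of 9 positive values (49%), with a median of 0.52. Whether the genotype difference depended on the chow was tested by the interaction, which 0 of the 9 members and 0% of genes passed in either cohort with edgeR. No member had an unadjusted p under 0.05 in these tests, and DESeq2 called 0 members as well.

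Between the cohorts, 0 members differed in their genotype effect with edgeR or DESeq2 (0 with an unadjusted p under 0.05, 0.148% of 18232 genes passed). The differences nearest to the threshold were those of Bst2, with an effect larger by 0.50 ± 0.27 on the log2 scale in the post-plaque group (adjusted p = 0.70), and Ifi27l2a, larger by 0.68 ± 0.40 (adjusted p = 0.74). Ifit1 had -0.34 ± 0.28. Cohort, age and any difference in handling between the cohorts cannot be told apart. Choroid plexus markers also differed between the cohorts, and Bst2 went with them, as described further on.

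When all 38 mice were used with a single genotype effect, a fit added after the data had been seen, Irf7 passed with a log2 fold change of 0.47 ± 0.12 (edgeR, adjusted p = 0.032), as 1 of 9 members and beside 1.63% of 18232 genes. It also passed in 38 of 38 fits that left out 1 mouse and in 6 of 6 other settings. The next members were Oasl2 (0.37 ± 0.11, adjusted p = 0.11), Ifi27l2a (0.68 ± 0.20, adjusted p = 0.12) and Rtp4 (0.37 ± 0.11, adjusted p = 0.12). Apart from Isg15 (0.12 ± 0.11, adjusted p = 0.86), every member had an unadjusted p under 0.05 and a higher level, as did 4.93% of all genes, and 9 of 9 were positive (47%). Since the members varied together between mice, these are not 9 separate readings of genotype. Ordered by mean level, the 4 APPPS1ΔE9 groups took the first 4 of 8 places for 3 genes, Irf7, Usp18 and Rtp4. For Bst2 the 4 pre-plaque groups came first. In that order, neighbouring groups overlapped in all 63 of 63 cases.

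**Figure D2:**
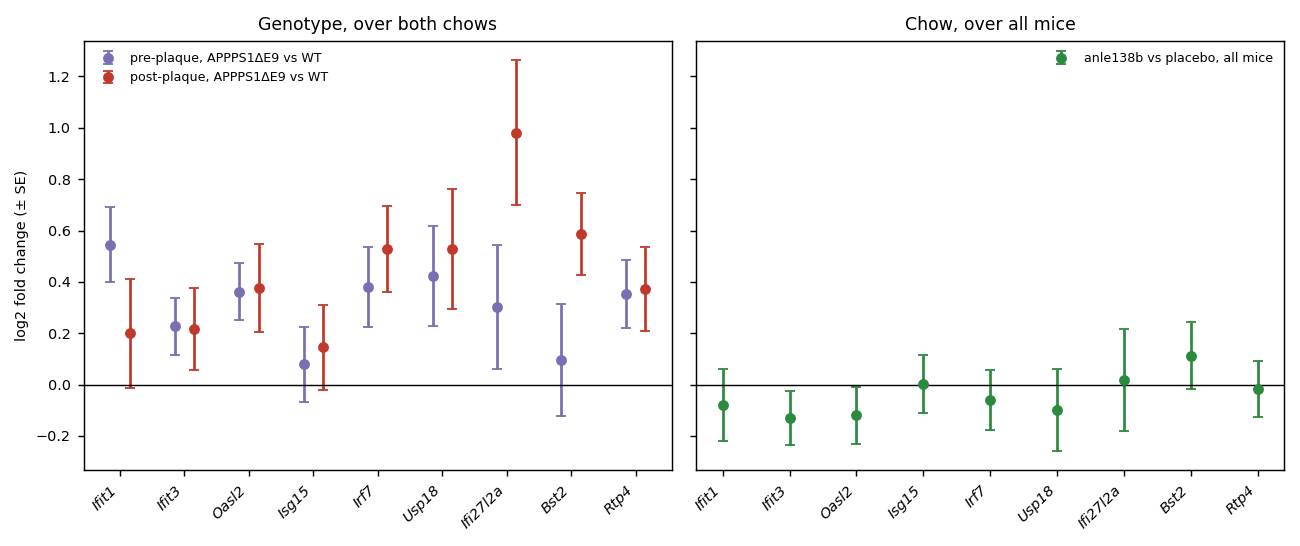
Log2 fold changes of the 9 genes with their SE (vertical axis), for APPPS1ΔE9 against WT over both chows in each cohort (left) and for anle138b against placebo over all mice (right). All genotype values are above 0, up to 0.98 for Ifi27l2a in the post-plaque group, while the chow values lie between -0.13 and 0.11.

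Treatment with anle138b was compared with placebo chow in each genotype and cohort. None of the 4 comparisons called a member: 0 of 9 passed with edgeR and with DESeq2 in each. In WT mice 0% of genes passed in either cohort and 0 members had an unadjusted p under 0.05. Among pre-plaque APPPS1ΔE9 mice 0.0529% of 17009 genes passed, that is 9 genes, a count that was 205 with DESeq2, 94 with Y-linked expression in the fit and 317 without the first placebo-treated mouse. Lane and chow cannot be told apart here. In this comparison Oasl2 was at 4.25, 4.42, 3.85 and 5.0 CPM on anle138b against 5.91, 4.99, 4.82 and 5.84 CPM on placebo, with a slight overlap, and it was the only member with an unadjusted p under 0.05 (log2 fold change -0.30 ± 0.12, adjusted p = 0.36). Ifit1 had -0.31 ± 0.18 and Bst2 0.39 ± 0.31. Unadjusted p values under 0.05 were held by 7.63% of all genes in the lower direction. Of the 9 members 7 had negative values, where 49.4% of all genes were positive, with a median of -0.13. In post-plaque APPPS1ΔE9 mice 0% of genes passed, 0 members had an unadjusted p under 0.05, and the members' values lay between -0.05 ± 0.25 for Usp18 and 0.25 ± 0.19 for Isg15.

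Over all mice the chow effect was small for each member. It ranged from -0.13 ± 0.10 for Ifit3 to 0.11 ± 0.13 for Bst2, with Irf7 at -0.06 ± 0.12 and Ifi27l2a at 0.02 ± 0.20. With edgeR and DESeq2 0 members passed, 0 had an unadjusted p under 0.05, and 0.011% of 18232 genes passed. In post-plaque WT mice all 9 members had negative values, where 50.2% of all genes were positive, with a median of -0.19. Without the first placebo-treated WT mouse this median was 0.0080. Within a single lane the medians were 0.39 among post-plaque WT libraries of lane 4, which held 1 placebo library, and -0.42 among post-plaque APPPS1ΔE9 libraries of lane 5, which held 1 anle138b library, against 0.05 over both lanes. In pre-plaque WT mice the median was 0.02, and 0.12 in lane 4. With 1 library in an arm, the post-plaque values within a lane rest on that mouse and are given as values with no test.

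That mouse leads to the pattern between individuals. Within their groups the 9 genes varied together from mouse to mouse. The first placebo-treated WT mouse of the post-plaque group had the highest value of its group for 9 of 9 genes, for example 10.2 CPM of Oasl2 against 5.52, 5.18, 4.24 and 4.32 in the others, and 4.12 CPM of Rtp4 against 1.75, 1.61, 1.71 and 1.45. Its library was also the shallowest of the 38, with 15847985 counts against 23251794 to 27273116 in the rest of its group, and the part of depth in these values was not tested. The fourth placebo-treated APPPS1ΔE9 mouse of that cohort likewise led its group for 9 of 9 genes, the first anle138b-treated WT mouse for 7 and the sixth anle138b-treated APPPS1ΔE9 mouse for 6. The WT mouse with the high values matched the highest transgenic mice: its mean over the 9 genes was 2.06 on the log2 CPM scale, against 2.09 and 2.20 in the leading placebo-treated and anle138b-treated APPPS1ΔE9 mice. Leaving it out, a choice that follows from its high values and so raises the genotype differences, gave log2 fold changes of 0.68 for Bst2, 1.13 for Ifi27l2a and 0.53 for Rtp4 in the post-plaque fit over both chows (adjusted p = 0.018, 0.037 and 0.038). Over all 22 fits that left out 1 mouse, 0 to 3 members passed, beside 224 to 296 genes in all.

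**Figure D3:**
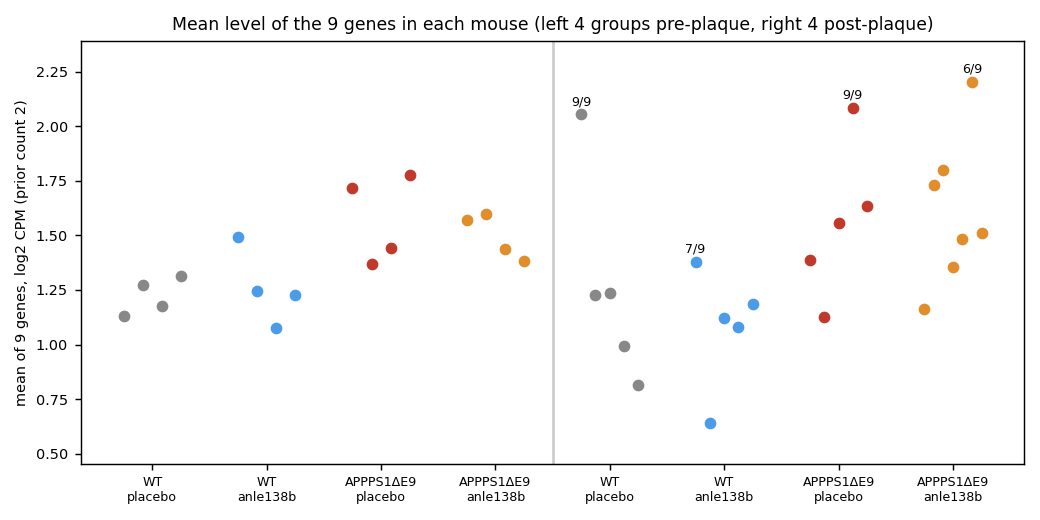
Mean of the 9 genes on the log2 CPM scale (vertical axis, prior count 2) in each mouse by group; the labels give, for mice that lead their group in at least 6 of the 9 genes, that number. The highest placebo-treated WT mouse of the post-plaque group, at 2.06, stands next to the highest APPPS1ΔE9 mice.

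The deviations of a gene from its group mean were compared with the mean deviation of the other 8 genes over the 38 mice. Pearson's r was 0.82 for Ifit3 (Spearman's rho 0.83), 0.81 for Ifit1 (rho 0.78), 0.77 for Oasl2 (rho 0.75) and 0.74 for Rtp4 (rho 0.61). It was 0.64 for Ifi27l2a (rho 0.51), 0.63 for Irf7 (rho 0.57), 0.58 for Usp18 (rho 0.47), 0.54 for Isg15 (rho 0.39) and 0.34 for Bst2 (rho 0.29). Bst2 thus went least with the others, and its r fell to 0.19 without the 2 mice farthest from the median. For the other 8 genes r was then between 0.42 and 0.80. Of the 36 pairs of genes 36 had a positive r, with a median of 0.53, from 0.82 for Ifit3 and Oasl2 to 0.06 for Usp18 and Bst2. These values are descriptions. All genes of a mouse share a library and its depth, and the part of depth in these values was not tested. The median r of other genes, with a mean of at least 1 CPM, with the members' mean was 0.0066. Values were scaled to library size beforehand, which holds the typical gene near 0, so this median does not measure that part.

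**Figure D4:**
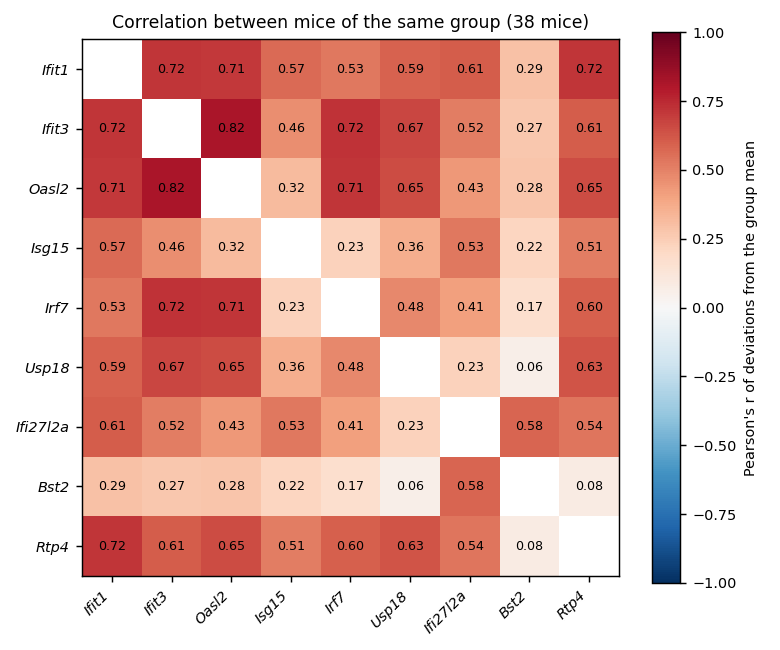
Pearson's r between each pair of the 9 genes over 38 mice (colour scale and printed values), computed on log2 CPM deviations from the group mean. The block of Ifit1, Ifit3 and Oasl2 holds values of 0.71 to 0.82, and the row of Bst2 is below 0.30 except with Ifi27l2a at 0.58.

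Of 15018 other genes with a mean of at least 1 CPM, the 10 whose deviations correlated best with the members' mean included Ddx60 (r = 0.74), Ifit3b (0.68), Gbp3 (0.68), Parp14 (0.68), Igtp (0.67), Gbp2 (0.67), Slfn8 (0.65), Trim30a (0.65) and Parp10 (0.65). Of these, Gbp2, Gbp3 and Igtp are interferon-inducible GTPases, and Ddx60 and Trim30a are induced by interferon. All 10 are in the interferon lists used here, which hold 101 of the ranked genes (0.673%). The median rank of the 101 was 245, and 14 of the 101 lay in its lower part, past the middle, such as Adar, an RNA-editing enzyme (r = -0.19, rank 13513). Promoter windows were at hand for 7 of the 10 most correlated genes, and each of the 7 had at least 1 window with an ISRE core. Of all windows 3.44% had one, a share of windows and not of genes. Gbp3, for example, had 2 windows, 1 of them with a core.

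Upstream in the pathway, ligands could not be read. Of 21 interferon genes 12 had 0 counts in all mice, and the other genes summed to 27 counts over 38 mice, 7 of them Ifng, with at most 2 in any mouse. A count of 0 in 1 mouse allows up to 3 counts. Of the 5 receptor genes tested in the post-plaque genotype fit over both chows, 0 passed with edgeR, with Ifnar2 at 0.19 ± 0.07 and Ifnar1 at -0.02 ± 0.03 and 3 at an unadjusted p under 0.05, against 7.07% of all genes. In this fit 1.56% of all genes passed. Of 10 genes of JAK-STAT signalling 3 passed, all higher in APPPS1ΔE9 mice. They were Ptpn6, a phosphatase that dampens cytokine signals (0.77 ± 0.11, adjusted p = 8.2e-05), Stat2 (0.19 ± 0.05, adjusted p = 0.033) and Irf9 (0.25 ± 0.07, adjusted p = 0.0998). The list's median was 0.11.

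Stat2, a subunit of ISGF3, was at medians of 35.8 and 34.8 CPM in placebo-treated and anle138b-treated WT mice and at 41.9 and 42.4 CPM in the APPPS1ΔE9 mice of the post-plaque group. The difference was small against its level and even between the chows. In the same genotype fit, where 1.56% of all genes passed, 2 of 17 genes of nucleic acid sensing did. They were the transcription factor Irf5 (0.52 ± 0.08) and the RNA receptor Tlr7 (0.76 ± 0.13). Among 61 further type I interferon-stimulated genes 6 passed, all higher in APPPS1ΔE9 mice, and the list's median was 0.15 with 50 positive values. The 4 with the smallest p were Lgals3bp (0.89 ± 0.12), Ifi204 (1.35 ± 0.27), Ifi207 (0.95 ± 0.21) and Epsti1 (0.61 ± 0.15). Lgals3bp, a secreted glycoprotein, was at a median of 14.2 and 14.7 CPM in placebo-treated and anle138b-treated WT mice and of 26.1 and 27.1 CPM in the APPPS1ΔE9 mice.

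Microglial markers were higher in the same mice. In the post-plaque genotype fit over both chows, 10 of 12 plaque-associated microglia markers passed, with a median log2 fold change of 1.29, and 6 of 10 homeostatic markers, with a median of 0.37, beside 1.56% of all genes. The homeostatic list summed to between 339 and 427 CPM in post-plaque WT and between 433 and 656 CPM in post-plaque APPPS1ΔE9 mice, with no gene of the list at 0 counts in any group. Members' levels were set against these lists within groups over all mice. The slope on the homeostatic list passed for Irf7, with 1.16 ± 0.42 on the log2 scale per log2 unit (edgeR, adjusted p = 0.043), as for 30.2% of all genes. For plaque-associated markers it passed for 0 of 9 members with edgeR, 1 at an unadjusted p under 0.05, and 0.675% of genes. The part of microglial RNA in the genotype differences was not tested.

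Choroid plexus RNA went with Bst2. Its slope on the choroid plexus markers was 0.26 ± 0.05 per log2 unit (adjusted p = 0.0002), the only one of the 9 that passed, as did 7.85% of genes. In each of the 4 pre-plaque groups the lowest Bst2 value (3.18, 3.81, 4.16 and 3.59 CPM) was that of the mouse with the lowest choroid plexus markers. With these markers in the fit, an alternative added after the data had been seen, the post-plaque genotype difference of Bst2 was 0.58 ± 0.15 (edgeR, adjusted p = 0.0495). In the pre-plaque group over both chows it was 0.33 ± 0.10 with these markers (adjusted p = 0.30), against 0.10 ± 0.22 without them. The slope on Y-linked RNA passed for 0 members with edgeR, 1 at an unadjusted p under 0.05, and 0.148% of genes. The members' slopes on it lay between -0.044 ± 0.032 for Ifi27l2a and -0.012 ± 0.028 for Usp18. The slope on endothelial markers passed for 0 members, 0 at an unadjusted p under 0.05, and 1.36% of genes.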

How the data were processed

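Hippocampal RNA of 38 mice was isolated with TRIZOL and made into TruSeq mRNA libraries. The authors aligned reads to mm10 with STAR and counted them per gene with HTSeq (mode intersection-non-empty), and deposited raw counts per gene, 1 table per mouse, without normalization. The annotation and strand setting of the counting are not given in the sources used here. Totals were 15847985 to 31895808 counts (median 24530658). Sample titles gave the groups. Each library is a separate mouse.

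Genes were filtered with filterByExpr (minimum count 10, minimum total 15), scaled by TMM and fitted in edgeR for its quasi-likelihood F test (edgeR 4.0.16, limma 3.58.1, R 4.3.3), with Benjamini-Hochberg adjustment over all genes tested and a threshold of 0.1. The standard error is the log2 fold change over the square root of F. The comparisons were genotype by chow and cohort, genotype over both chows, chow, the interactions, the cohort difference and, added after the data had been seen, genotype over all mice. CPM is TMM-normalized. Correlations used log2 CPM deviations from group means. The fits were tested on simulated data.

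Alternatives were DESeq2 1.42.0, its size factors, no filter, a threshold of 0.05, Y-linked expression as a covariate, a replicate block, 1 fit over the 4 groups of a cohort, single lanes, each mouse left out and, added later, choroid plexus markers as a covariate. The 9 members and the gene lists were chosen with earlier results of these data known. Named besides them were the receptors, Stat2 and Irf9, up to 4 genes of each other list with the smallest p in the post-plaque genotype fit, and the 10 most correlated genes. Gene positions are from GENCODE (GRCm38), which held 48349 of 48709 identifiers, and promoter windows from RefSeq (GRCm38.p6). Some genes that this rule names are not reported here.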

Additional observations from a re-analysis of the deposited data

Results flagged for a closer look

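Among 72 sets of values (9 genes in 8 groups), 8 highest values stood far from the other mice of their group by Dixon's test. Its threshold is passed in about 1 of 20 separate sets of normally distributed values. These genes varied together, several of the 8 values share a mouse, and low counts need not be normally distributed. That rate is thus no measure of how unusual the 8 are. The first placebo-treated WT mouse of the post-plaque cohort had 10.17 CPM of Oasl2 (next 5.521), 2.495 CPM of Usp18 (next 1.166) and 4.117 CPM of Rtp4 (next 1.75). The sixth anle138b-treated APPPS1ΔE9 mouse of that cohort had 5.25 CPM of Irf7 (next 3.091), 3.244 CPM of Ifi27l2a (next 1.472) and 4.347 CPM of Rtp4 (next 2.752). In the fourth placebo-treated APPPS1ΔE9 mouse of that cohort Isg15 was at 2.727 CPM (next 1.741). In the first anle138b-treated WT mouse of the pre-plaque cohort Irf7 was at 2.761 CPM (next 1.968). No lowest value stood apart.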

How the results depend on the processing

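Members past the threshold changed as follows, and the cause was not tested. For placebo-treated pre-plaque mice the 0 called became 1 with DESeq2 (0.468% of all genes, against 0.0715% with edgeR) and 1 without the filter. For pre-plaque genotype over both chows 0 became 2 with DESeq2 (1.58% against 0.172%). For anle138b-treated post-plaque mice 0 became 1 with Y-linked expression. For post-plaque genotype over both chows 1 became 2 with DESeq2 (1.61% against 1.56%) and 2 with Y-linked expression. It became 0 with the replicate block, 0 at a threshold of 0.05, and 0 to 3 with a mouse left out. For genotype over all mice 1 became 4 with DESeq2 (1.29% against 1.63%), 3 without the filter and 4 with Y-linked expression. It became 2 with the replicate block, 3 with choroid plexus markers, and 1 to 5 with a mouse left out. With a mouse left out, 224 to 296 genes in all passed for post-plaque genotype over both chows, against 275 with every mouse. For genotype over all mice they were 249 to 313, against 298. The remaining settings have no share of all genes beside them here, so their member counts are given as values only. Replicate numbers were not used to pair the mice in the main fits, since no comparison had every pair's correlation over 0.1. Some pairs did: between the chows in post-plaque WT mice 4 of 5 were over 0.1, with a mean of 0.36. What same-numbered libraries share was not tested.

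Signs turned only for values that passed no test. On placebo in the pre-plaque cohort, Isg15 was -0.29 and Bst2 0.012 with Y-linked expression, and Bst2 0.37 with choroid plexus markers. On placebo in the post-plaque cohort, Ifit1 was 0.32 with Y-linked expression, 0.026 with the replicate block and 0.33 with choroid plexus markers, and Isg15 was 0.53 with Y-linked expression. With a mouse left out, pre-plaque placebo values ran from -0.11 to 0.19 for Isg15, -0.0026 to 0.41 for Ifi27l2a and -0.26 to 0.15 for Bst2, and Isg15 on anle138b from -0.028 to 0.21. Post-plaque placebo values ran from -0.17 to 0.27 for Ifit1, -0.040 to 0.22 for Ifit3 and -0.27 to 0.087 for Isg15, and Ifnar1 over both chows from -0.026 to 0.0028.

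Counts over all genes moved by over 1.5 times in several fits: with DESeq2 from 12 to 89 (pre-plaque placebo), 30 to 231 (pre-plaque, both chows), 55 to 113 (post-plaque placebo) and 124 to 188 (post-plaque anle138b), and with Y-linked expression to 4, 7, 14 and 269. The replicate block took post-plaque anle138b from 124 to 20. The largest moves came from leaving out the first pre-plaque APPPS1ΔE9 mouse on placebo, from 12 to 205 for genotype on placebo and from 9 to 317 for chow in APPPS1ΔE9 mice. That chow count was 205 with DESeq2, 120 without the filter and 94 with Y-linked expression. Member counts of 7 to 271 per mouse limit the precision of the weakest genes.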

Other observations

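Antigen presentation, another target of interferons, was read in the same post-plaque genotype fit over both chows. Of 15 genes of MHC class I and the immunoproteasome 1 passed, B2m, the light chain of MHC class I (0.52 ± 0.13, edgeR, adjusted p = 0.048), while 14 had positive values with a median of 0.16. H2-D1, a heavy chain, had 0.50 ± 0.15 (adjusted p = 0.19). Of 13 interferon-inducible GTPases 0 passed with edgeR, 2 had an unadjusted p under 0.05, and the median was 0.04. Irgm1 was nearest to the threshold (0.27 ± 0.07, adjusted p = 0.11), and Gbp4 had -0.39 ± 0.20. Beside these, 1.56% of all genes passed.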
